A study of Bos indicus with 12 samples.

Results

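The genes described here are IFIH1, DHX58, MAVS, IFNAR1, IFNAR2, STAT2, IRF3, IRF7 and IRF9, which sense foreign RNA in the cytosol or carry the type I interferon signal. They were chosen by symbol and pathway role, with earlier results of these data known, and the symbols were joined to the table's gene identifiers through RefSeq. Of the 9 genes, 7 were paired with one of the 26229 identifiers in the count table, and those 7 were all among the 15420 genes that passed the filter on low counts. DHX58 and IRF7 were paired with no identifier and are not analysed here. Blood RNA was sequenced from 12 female Bos indicus cows in the second or the third lactation, 6 of the zebu dairy breed Gir and 6 of Shweta Kapila. Each breed held 3 cows classed as high-yielding and 3 classed as low-yielding from lactation records. The classes were set within each breed, and the labels give neither milk yields nor ages. No treatment, allele or transgene is named for any group.

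IFIH1 (MDA5) and DHX58 (LGP2) are helicases that bind double-stranded RNA in the cytosol, and MAVS is the mitochondrial adaptor through which IFIH1 signals to the kinases that activate IRF3 and IRF7. The interferon made in response binds a receptor of the chains IFNAR1 and IFNAR2, whose kinases phosphorylate STAT2. STAT2 and IRF9 are subunits of the factor ISGF3, which switches on antiviral effector genes, IFIH1, STAT2 and IRF9 among them. Most blood leucocytes carry this pathway at rest. In bulk blood RNA, fewer cells of a type and less RNA per cell cannot be told apart.

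Total counts ran from 14.2 M to 27.2 M per library, and each of the 7 genes had between 442 and 14342 counts in every library. Levels are given as CPM, counts per M of TMM-scaled library size, a scale on which libraries, but not genes of different length, can be compared. The labels name mononuclear cells as well as a whole-blood RNA kit. T cell markers were paired for 10 of 10 symbols. Neutrophil markers were paired for 7 of 10, with a summed level of 1289 to 4243 CPM and 0 of the 7 at zero in every library. Most of that sum came from CSF3R (479 to 2147 CPM) and S100A9 (350.1 to 1432 CPM), which monocytes express too, and from CXCR2 (227 to 1028 CPM). S100A8 had 44.3 to 179 CPM. The granule genes LTF (0.054 to 3.25 CPM), MPO (2.37 to 10.2 CPM) and MMP9 (3.53 to 22.1 CPM) were low. How many neutrophils the samples held cannot be told from these levels. A set of 37 unnamed identifiers of 7 or 8 digits held 4.54% to 13.1% of the counts of a library. Shweta Kapila high 3, low 1 and low 2 had the largest totals (over 22 M) and the largest of these shares (8.998%, 13.1% and 11.7%), while the shares were 4.54%, 4.72% and 5.57% in high 1, high 2 and low 3.

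No gene of the 7 passed edgeR's quasi-likelihood test at an adjusted p of 0.05 in any of the 5 comparisons (high against low yield in each breed, their mean, their difference, and breed). The background was the same, with 0 of 15420 genes called (0%) in each comparison. At an unadjusted p under 0.05 stood IFNAR2 for yield in Shweta Kapila (lower with high yield) and STAT2 for breed (higher in Gir). Of all genes, 2.93% met the same bound in that direction for the first comparison and 3.78% for the second. For yield in Gir, yield over both breeds and the difference between breeds, 0 of the 7 were past it, where 1.89%, 4.13% and 3.81% of all genes were, in either direction. DESeq2 called 0 of the 7 in each comparison, with 0.0065%, 0.396%, 0.026%, 0.0585% and 1.27% of all genes called (yield in Gir, in Shweta Kapila, over both breeds, their difference, breed). Weighted limma-voom called 0.00649%, 25.3%, 8.15%, 8.48% and 16.6% of all genes in that order, with IFIH1 and IFNAR2 among them for yield in Shweta Kapila, IFNAR2 for the difference and STAT2 for breed.

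**Figure D1:**
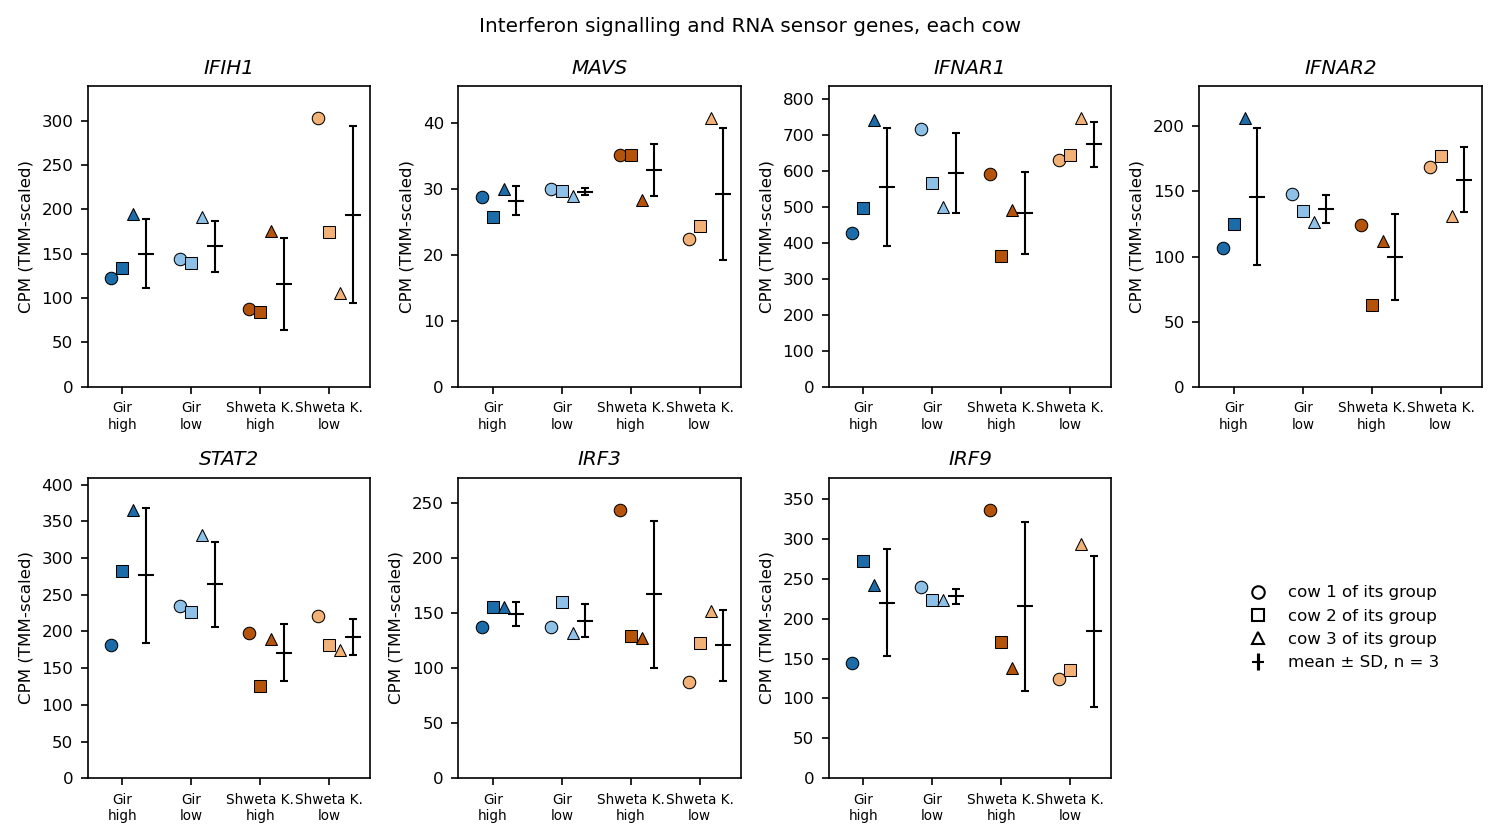
CPM (vertical axes, from 0) of the 7 measured genes in each of the 12 cows, by group; marker shapes number the cows within a group, and bars give mean ± SD (n = 3). IFNAR1 and IFNAR2 separate the high- from the low-yielding Shweta Kapila cows, and 5 of the 6 Gir cows lie above every Shweta Kapila cow for STAT2.

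IFIH1 (identifier 109567061), the RNA sensor, varied more between Shweta Kapila cows than between Gir cows. It stood at 123, 134 and 194 CPM in high-yielding and 144, 140 and 191 CPM in low-yielding Gir cows. In Shweta Kapila it stood at 88.1, 84.5 and 175 CPM with high yield and at 303, 174 and 105 CPM with low yield. The groups overlapped in both breeds. Shweta Kapila high 3 lay among the low-yielding cows of its breed, and low 3 lay between high 1 and high 3. Group means ran from 194 ± 100.1 CPM in low-yielding Shweta Kapila through 158 ± 28.5 in low-yielding Gir and 150 ± 38.6 in high-yielding Gir to 116 ± 51.5 in high-yielding Shweta Kapila (mean ± SD, n = 3 each). No neighbours in that order were apart.

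For yield in Shweta Kapila the log2 fold change of IFIH1 was −0.74 ± 0.39 (SE; 95% interval −1.58 to 0.10; edgeR adjusted p = 0.655). In Gir it was −0.07 ± 0.39 (adjusted p = 1). The 2 breeds' yield differences differed by 0.67 ± 0.55 (edgeR adjusted p = 0.955), so no difference between the breeds was shown. The Shweta Kapila value was −0.28 without low 1, −1.17 without high 3 and 0.09 ± 0.21 when that share of unnamed identifiers entered the fit. Breed gave 0.04 ± 0.27 (adjusted p = 0.971), and 0.70 ± 0.20 without the libraries of over 22 M counts (adjusted p = 0.121).

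MAVS (identifier 109567183), the adaptor on the outer mitochondrial membrane, was the steadiest of the genes. It stood at 28.7, 25.7 and 29.99 CPM in high-yielding and at 30.001, 29.6 and 28.9 CPM in low-yielding Gir cows. Shweta Kapila cows had 35.1, 35.1 and 28.3 CPM with high yield and 22.4, 24.4 and 40.6 CPM with low yield. Shweta Kapila low 1 and low 2 were the lowest of the 12 cows and low 3 the highest. The SD of its log2 CPM over the 12 cows was 0.24, against a median of 0.49 over all genes tested and 0.52 for IFIH1. Group means were 32.8 ± 3.93 (high-yielding Shweta Kapila), 29.5 ± 0.536 (low-yielding Gir), 29.1 ± 10.0 (low-yielding Shweta Kapila) and 28.1 ± 2.21 CPM (high-yielding Gir), with overlap between all neighbours. The yield difference was −0.07 ± 0.25 in Gir and 0.17 ± 0.25 in Shweta Kapila on the log2 scale, and breed gave −0.10 ± 0.18 (edgeR adjusted p = 1, 0.8 and 0.865). The intervals were −0.61 to 0.47, −0.37 to 0.71 and −0.48 to 0.28. The Shweta Kapila value was 0.0098 without low 1, 0.49 without low 3, 0.46 with weighted limma-voom (adjusted p = 0.0567) and −0.15 with the share of unnamed identifiers in the fit.

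The receptor chains were lower in every high-yielding than in every low-yielding Shweta Kapila cow, and overlapped by yield in Gir. IFNAR2 (identifier 109572614), the chain that binds interferon tightly, stood at 125, 62.6 and 112 CPM with high yield and at 169, 177.5 and 131 CPM with low yield in Shweta Kapila. IFNAR1 (identifier 109570535), the chain that completes the receptor, stood at 591, 363 and 491 CPM against 629.96, 645 and 745 CPM. Shweta Kapila high 2 was the lowest of the 12 cows for both. Such separation with lower values at high yield was seen for 2 of the 7 genes and for 3.7% of all genes tested. In Gir 0 of the 7 separated by yield, where 10.2% of all genes did in either direction, and 0 of the 7 separated the breeds, where 0.603% did.

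On the log2 scale IFNAR2 differed by −0.67 ± 0.30 with yield in Shweta Kapila (95% interval −1.33 to −0.02; unadjusted p = 0.0437, edgeR adjusted p = 0.655). IFNAR1 differed by −0.48 ± 0.26 (−1.05 to 0.09; unadjusted p = 0.0909, adjusted p = 0.655). Without Shweta Kapila high 2 these became −0.43 and −0.31, and with the share of unnamed identifiers in the fit −0.43 ± 0.32 and −0.56 ± 0.28 (adjusted p = 0.763 and 0.666). With a weight per library in limma-voom, IFNAR2 was at −1.17 (adjusted p = 0.00907), IFIH1 at −0.90 (adjusted p = 0.0289) and IFNAR1 at −0.64 (adjusted p = 0.0528). That fit called 25.3% of all genes, and its weights ran from 0.184 for Shweta Kapila low 3 to 6.62 for low 2.

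In Gir, IFNAR2 stood at 107, 125 and 206 CPM with high yield and 148, 135 and 127 CPM with low yield. IFNAR1 stood at 427, 496 and 740 CPM against 715, 565 and 499 CPM. High 3 was the highest Gir cow for both chains and high 1 the lowest. The yield differences were 0.10 ± 0.30 and −0.10 ± 0.26 on the log2 scale (edgeR adjusted p = 1 for each). The Gir minus the Shweta Kapila yield difference was 0.77 ± 0.42 for IFNAR2 (95% interval −0.15 to 1.69; adjusted p = 0.955) and 0.39 ± 0.37 for IFNAR1 (adjusted p = 0.955), so neither was shown to differ by breed in that fit. Without Gir high 3 these became 0.44 and 0.12, and without Shweta Kapila high 2 0.22 for IFNAR1, while weighted limma-voom gave 1.19 for IFNAR2 (adjusted p = 0.0455).

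By group, IFNAR2 ran from 159 ± 24.7 CPM in low-yielding Shweta Kapila through 146 ± 52.9 (high-yielding Gir) and 137 ± 10.9 (low-yielding Gir) to 99.7 ± 32.7 in high-yielding Shweta Kapila (mean ± SD, n = 3 each). Only the last neighbours were apart, with a lowest Gir value of 127 CPM and a highest Shweta Kapila value of 125 CPM. IFNAR1 kept a similar order, at 673 ± 62.8, 593 ± 110 (low-yielding Gir), 555 ± 165 (high-yielding Gir) and 482 ± 114 CPM, with overlap between all neighbours. Breed gave 0.17 ± 0.21 for IFNAR2 and 0.01 ± 0.19 for IFNAR1 on the log2 scale (edgeR adjusted p = 0.806 and 0.988).

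Summed levels of the marker lists for T cells, NK cells and plasmacytoid dendritic cells did not overlap between the yield classes of Shweta Kapila. Of single genes tested, 3.51% separated these classes on the higher and 3.7% on the lower side. T cell markers (10 of 10) summed to 3658 to 5124 CPM in the high- and 2210 to 3371 CPM in the low-yielding cows. The list for plasmacytoid dendritic cells, a cell type known for making much interferon, had 5 of 9 symbols paired (TCF4, IRF8, BLNK, RUNX2 and SPIB). Its sum was 338 to 381 CPM in the high- and 426 to 997 CPM in the low-yielding cows. SPIB reached 584 CPM, BLNK is also on the B cell list, and both lists summed highest in Shweta Kapila low 3. This sum cannot be assigned to plasmacytoid dendritic cells alone. NK markers (5 of 8, PRF1, NKG7, KLRK1, CTSW and CST7) summed to 675 to 1396 CPM against 305 to 588 CPM. T cell markers separated the classes in the same direction, and the NK sum cannot be assigned to NK cells alone. B cell markers (9 of 10) overlapped, at 830 to 937 CPM against 794 to 3187 CPM. The sums for monocytes (189 to 425 against 307 to 392 CPM), neutrophils, platelets and erythroid cells overlapped too. In each of these lists 0 paired markers were at zero in every library. Their part in the receptor and IFIH1 values was not tested.

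STAT2 (identifier 109559357), the transactivating subunit of ISGF3, had the largest breed difference of the 7 genes. It stood at 182, 282 and 366 CPM in high-yielding and 234, 226 and 331 CPM in low-yielding Gir cows. Shweta Kapila cows had 198, 126 and 189 CPM with high yield and 221, 182 and 174 CPM with low yield. Of the 6 Gir cows, 5 were above every Shweta Kapila cow, and Gir high 1 was not. Gir minus Shweta Kapila was 0.58 ± 0.20 on the log2 scale (95% interval 0.14 to 1.01), or 1.49-fold (unadjusted p = 0.0138, edgeR adjusted p = 0.399). DESeq2 gave an adjusted p of 0.176 and limma-voom with weights 0.0203, where these fits called 1.27% and 16.6% of all genes. With each cow left out the value stayed between 0.45 and 0.69.

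Within breeds STAT2 did not separate by yield. The log2 differences were 0.07 ± 0.28 in Gir and −0.17 ± 0.28 in Shweta Kapila (edgeR adjusted p = 1 and 0.826). The order of the groups was 277 ± 92.0 (high-yielding Gir), 264 ± 58.5 (low-yielding Gir), 192 ± 25.0 (low-yielding Shweta Kapila) and 171 ± 39.1 CPM (high-yielding Shweta Kapila). Only the middle neighbours were apart, at 226 CPM or more against 221 CPM or less. In the reference annotation the span of STAT2 overlaps that of IL23A, a cytokine subunit gene with 0.8003 to 2.68 CPM, which was low beside the STAT2 values.

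**Figure D2:**
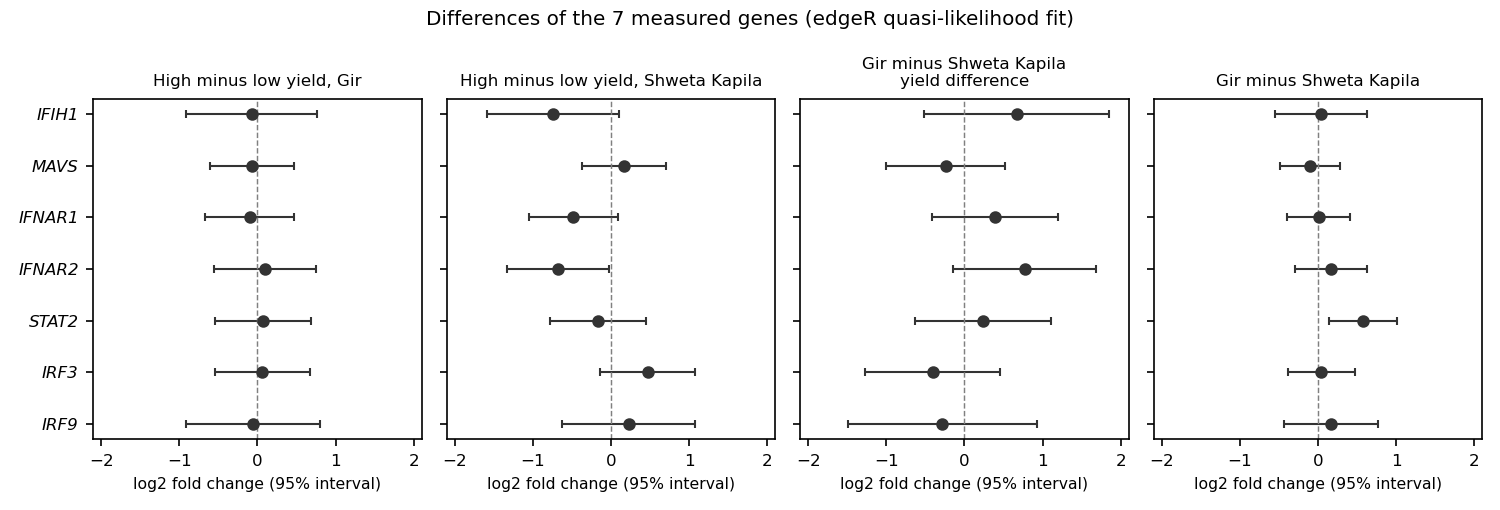
Log2 fold changes (horizontal axes) of the 7 genes in 4 comparisons, with 95% intervals from edgeR's quasi-likelihood fit over all 12 libraries; the dashed line marks no difference. Intervals clear of 0 belong to IFNAR2 for yield in Shweta Kapila and STAT2 for breed, and neither passed after adjustment over all genes.

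IRF9 (identifier 109564781), the DNA-binding subunit of ISGF3, did not separate by yield or breed. It stood at 144, 272 and 242 CPM in high-yielding and 239, 223 and 223 CPM in low-yielding Gir cows. In Shweta Kapila it stood at 336, 171 and 138 CPM with high yield and 124, 135 and 293 CPM with low yield. High 1 and low 3 were the highest of all 12 cows and low 1 and low 2 the lowest, so each Shweta Kapila class spanned most of the range. Group means were 228 ± 9.41 (low-yielding Gir), 220 ± 66.9 (high-yielding Gir), 215 ± 106 (high-yielding Shweta Kapila) and 184 ± 94.4 CPM (low-yielding Shweta Kapila), with overlap between all neighbours. Its log2 yield differences were −0.06 ± 0.39 and 0.23 ± 0.39, and breed gave 0.17 ± 0.28 (edgeR adjusted p = 1, 0.832 and 0.854). The Shweta Kapila value was −0.24 without high 1 and 0.73 without low 3.

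The span of IRF9 overlaps that of RNF31, a ubiquitin ligase gene, in the reference annotation, and the strand setting of the counts is not given, so reads of the pair cannot be told apart with certainty. RNF31 stood at 33.7 to 83.4 CPM. Its log2 CPM moved with that of IRF9 over the 12 cows (Pearson r = 0.944 with a permutation p of 2e-05 and 4e-05 after adjustment over 2 relations, and Spearman rho = 0.93 with 5e-05 and 1e-04). Without the 2 cows of most extreme RNF31 level r was 0.939, and within breeds it was 0.926 in Gir and 0.966 in Shweta Kapila. IRF9 had a higher r over the 12 cows with CRB2 (0.966), YIPF1 (0.96) and WDR97 (0.956), whose spans do not overlap its own. Whether IRF9 and RNF31 share reads was not tested. For IL23A and STAT2 r was −0.0589 (permutation p = 0.854; rho = −0.028, permutation p = 0.938).

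IRF3 (identifier 109572224), the factor that MAVS signalling activates and that starts transcription of interferon beta, was at 137, 156 and 155 CPM in high-yielding and 137, 159.9 and 132 CPM in low-yielding Gir cows. Shweta Kapila cows had 244, 129 and 128 CPM with high yield and 87.4, 123 and 152 CPM with low yield. High 1 was the highest and low 1 the lowest of the 12 cows, and the groups overlapped. Group means were 167 ± 66.5 (high-yielding Shweta Kapila), 149 ± 10.7 (high-yielding Gir), 143 ± 14.8 (low-yielding Gir) and 120 ± 32.1 CPM (low-yielding Shweta Kapila), with overlap between all neighbours. The yield difference was 0.47 ± 0.28 in Shweta Kapila on the log2 scale (95% interval −0.14 to 1.08; edgeR adjusted p = 0.655), and 0.10 without high 1. It was 0.06 ± 0.28 in Gir (adjusted p = 1), and breed gave 0.04 ± 0.20 (adjusted p = 0.955).

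Averaged over both breeds, the log2 yield differences lay between −0.41 ± 0.27 for IFIH1 and 0.27 ± 0.20 for IRF3 (edgeR adjusted p = 0.874 for each). IFNAR1 and IFNAR2 were at −0.29 each, and 4 of 7 values were below 0, beside 51.5% of all genes. IFIH1 was at −0.18 without Shweta Kapila low 1 and −0.62 without high 3, and IRF3 at 0.079 without high 1. IFNAR2 was at −0.17 without Shweta Kapila high 2 and −0.45 without Gir high 3. With the share of unnamed identifiers in the fit IFIH1 and IRF3 were at −0.027 and 0.095. The median over the 7 was −0.05, beside −0.01 over all genes tested. In Gir alone the median of the 7 stood at −0.06 beside −0.02, in Shweta Kapila at −0.17 beside −0.02, and for breed at 0.04 beside −0.04. These medians describe the genes and were not tested.

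Across the 12 cows the genes did not move as a block. Of the 21 pairs, 15 correlated positively and 6 negatively (log2 CPM), and 2 positive pairs and 1 negative pair passed at an adjusted p under 0.05 for Pearson's r. Both values of a cow share its library, with the depth given above. How many pairs among all genes would pass was not computed, so these counts have no background beside them. The receptor chains formed the first pair (r = 0.846 and rho = 0.825, with permutation p-values of 0.00027 and 0.00176, or 0.00283 and 0.0185 after adjustment over 21 pairs). Their r was 0.684 without the 2 cows farthest from the IFNAR2 median, 0.904 within Gir (exact permutation p = 0.00139, adjusted p = 0.0292) and 0.865 within Shweta Kapila (exact permutation p = 0.0389, adjusted p = 0.219).

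IRF3 and IRF9 formed the second pair (r = 0.807 and rho = 0.888, with permutation p-values of 0.00011 and 0.00028, or 0.00231 and 0.00588 after adjustment). Leaving out the 2 cows farthest in IRF9 gave 0.723. Within Shweta Kapila r was 0.876 (exact permutation p = 0.00139, adjusted p = 0.0292) and within Gir 0.458 (exact permutation p = 0.415, adjusted p = 0.692). IRF3 and IRF9 were both lower where the share of unnamed identifiers was higher (r = −0.75 and −0.708). The part of that share in this pair was not tested. Over the 12 cows together, but not within Gir, the sensor and its adaptor went opposite ways. Both also moved with the share of unnamed identifiers (r = 0.898 for IFIH1 and −0.824 for MAVS), and its part in this pair was not tested. IFIH1 and MAVS had r = −0.781 and rho = −0.615, with permutation p-values of 0.00321 and 0.0369, or 0.0225 and 0.155 after adjustment. Leaving out the 2 cows farthest in MAVS gave −0.682. Within Shweta Kapila r was −0.895 (exact permutation p = 0.0264, adjusted p = 0.219), and in Gir r was 0.382 (exact permutation p = 0.567, adjusted p = 0.7). The log2 ratio of IFIH1 to MAVS within a library ran from 1.27 and 1.33 in Shweta Kapila high 2 and high 1 to 3.76 in low 1, and in Gir from 2.09 to 2.72.

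**Figure D3:**
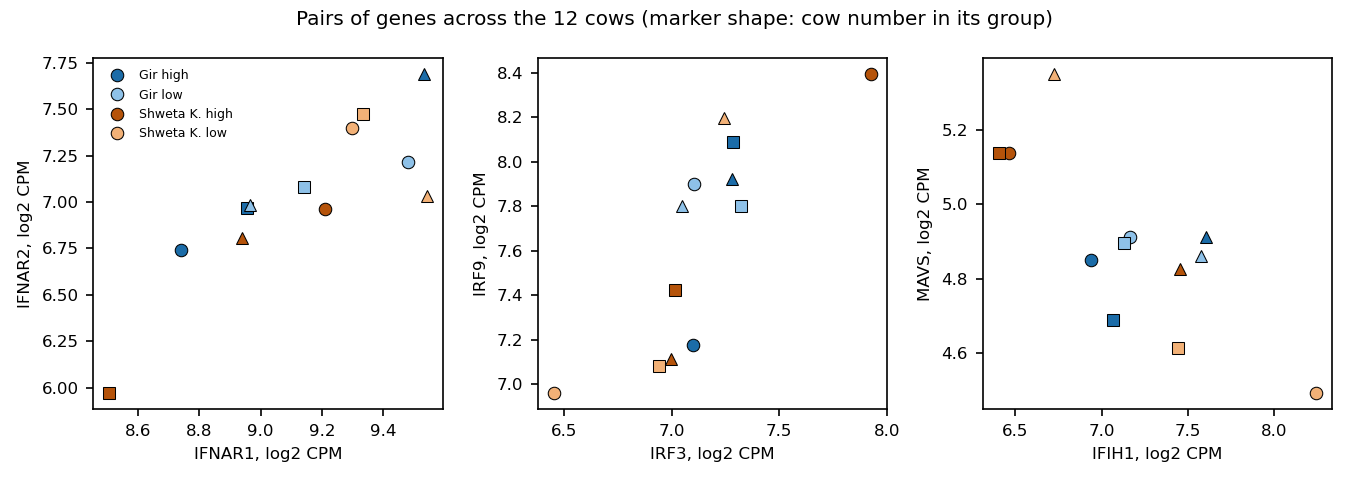
Log2 CPM of 3 pairs of genes in the 12 cows (both axes in log2 units), coloured by group, with marker shape for the cow's number in its group. The receptor chains (r = 0.846) and IRF3 with IRF9 (r = 0.807) lie along rising lines, and MAVS is lower where IFIH1 is higher (r = −0.781), mainly among Shweta Kapila cows.

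The share of counts on the unnamed identifiers moved with 4 of the 7 genes. How many of all genes move with that share was not computed, so the 4 of 7 has no background beside it. IFIH1 was higher where that share was higher (r = 0.898 and rho = 0.86, with permutation p-values of 0.00014 and 0.00357 after adjustment over 7 relations). Without the 2 cows farthest in the share r was 0.928. MAVS was lower (r = −0.824 and rho = −0.846, by permutation 0.00343 and 0.00357 after adjustment, and r = −0.644 without those cows). IRF3 was lower too (r = −0.75 and rho = −0.706, by permutation 0.00779 and 0.0227 after adjustment, and r = −0.515). So was IRF9 (r = −0.708 and rho = −0.741, by permutation 0.0161 and 0.0186 after adjustment, and r = −0.451).

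Within Shweta Kapila these r were 0.961, −0.947, −0.771 and −0.806 in the same order, of which IFIH1 passed after adjustment (exact permutation p = 0.00556, adjusted p = 0.0389; the others 0.0583, 0.0843 and 0.122). Within Gir they were 0.801, 0.121, −0.352 and −0.0527 (exact permutation, adjusted p of at least 0.525), so the negative relations were not seen there. IFNAR1 (r = 0.224), IFNAR2 (0.556) and STAT2 (0.227) did not pass over the 12 cows (permutation, adjusted p = 0.486, 0.0878 and 0.486). With the total count in place of the share, no gene passed after adjustment (lowest adjusted p = 0.0922 for IFIH1, r = 0.688, permutation).

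**Figure D4:**
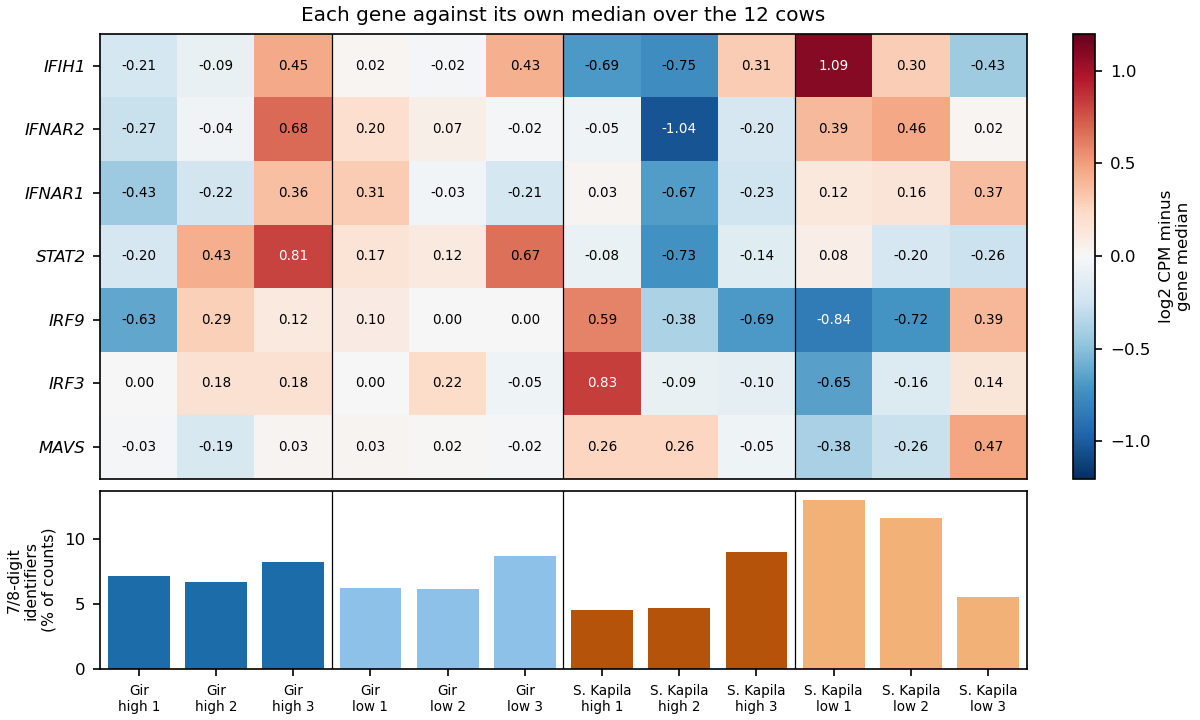
Upper panel, log2 CPM of the 7 genes in each cow minus the gene's median over the 12 cows; lower panel, share of counts (%) on the 37 unnamed identifiers in the same cows. Shweta Kapila low 1, with the highest share (13.1%), has the highest IFIH1 and the lowest IRF9, IRF3 and MAVS.

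Of the 7, STAT2 followed the antiviral effector genes most closely. Over 29 effector genes (of 38 listed) the mean log2 CPM of a cow ran from 5.93 in Shweta Kapila high 2 to 6.93 in Gir low 3. STAT2 correlated with it at r = 0.847 and rho = 0.853 (permutation p-values of 0.00043 and 0.00091, or 0.00301 and 0.00637 after adjustment over 7 relations), at 0.799 without the 2 farthest cows, and at 0.823 in Gir and 0.826 in Shweta Kapila (exact permutation p = 0.0278 and 0.0625, adjusted p = 0.0972 and 0.285). IFNAR2 (r = 0.633), IFIH1 (0.575), IFNAR1 (0.555), IRF9 (0.367), IRF3 (−0.0562) and MAVS (−0.24) did not pass after adjustment (permutation, lowest adjusted p = 0.0746). Within Gir, IRF9 (r = 0.804) and IFIH1 (0.785) lay close to STAT2 (exact permutation, adjusted p = 0.331 and 0.0875). In Shweta Kapila they were at 0.006 and 0.618 (exact permutation, adjusted p = 0.99 and 0.343). Whether any of these r differ from that of STAT2 was not tested. How many of all genes move with the effector mean was not computed.

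The genes whose log2 CPM was most like each member over the 12 libraries were found among 11895 named genes, and their r describe the best of many. For IFIH1 they were DTX3L (r = 0.969, rho = 0.972), PARP14 (0.961, 0.916) and CDK12 (0.956, 0.881). DTX3L and PARP14 are interferon-responsive genes and stand on the effector list. For STAT2 they were ZNFX1, an RNA helicase that senses viral RNA (0.965, 0.958), PLEK (0.926, 0.86) and UBAP1 (0.915, 0.867).

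PKP2 was shared by both receptor chains, IFNAR2 with GLIS3 (0.914, 0.839), PKP2 (0.913, 0.881) and VDAC1 (0.897, 0.692), and IFNAR1 with BCORL1 (0.862, 0.79), GNB1 (0.853, 0.888) and PKP2 (0.852, 0.825). IRF3 was most like AARSD1 (0.972, 0.895), GPS1 (0.961, 0.846) and CDK5RAP3 (0.96, 0.832). IRF9 was most like CRB2 (0.966, 0.923), YIPF1 (0.96, 0.881) and WDR97 (0.956, 0.923), and MAVS most like EML2 (0.964, 0.944), TM7SF2 (0.962, 0.979) and ANKRD52 (0.937, 0.972).

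Around these genes, 63 of 70 listed genes of the wider pathway were tested (other sensors, adaptors, receptors, kinases, STAT and IRF factors, inhibitors and interferons), and edgeR called 0 of them in each comparison. DESeq2 called 0 as well, and weighted limma-voom called 0, 23, 8, 9 and 17 in the order above, where it called 0.00649%, 25.3%, 8.15%, 8.48% and 16.6% of all genes. In Shweta Kapila 24 were on the higher and 39 on the lower side with high yield, where 51.7% of all genes were lower. The median log2 fold change was −0.21, beside −0.02 over all genes. At an unadjusted p under 0.05 stood 4 higher and 3 lower, where 4.05% and 2.93% of all genes were. Those of lowest p on the lower side were CGAS, the cytosolic DNA sensor (2.32 ± 0.546 against 5.28 ± 2.19 CPM, as mean ± SD with n = 3; on the log2 scale −1.19 ± 0.37), and RIGI, the sister sensor of IFIH1 (69.4 ± 17.4 against 118 ± 28.7 CPM; −0.77 ± 0.29). On the higher side they were TBKBP1, an adaptor of the kinase TBK1 (48.7 ± 24.0 against 20.1 ± 11.4 CPM; 1.28 ± 0.44), and NLRC5, a regulator of class I antigen presentation (601 ± 49.8 against 408 ± 14.9 CPM; 0.56 ± 0.19). Of the 63, 1 separated the classes on the higher side (NLRC5) and 4 on the lower (CGAS and RIGI among them), where 3.51% and 3.7% of all genes did.

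By role in Shweta Kapila, the other STAT and IRF factors were lower with high yield for 8 of 10 (median −0.35), receptors and kinases for 4 of 7 (−0.46), endosomal sensors and their partners for 6 of 10 (−0.29), DNA sensors for 4 of 6 (−0.29) and negative regulators for 8 of 12 (−0.14). Kinases and adaptors that lead to IRF factors were lower for 5 of 9 (−0.11) and RNA sensors and partners for 4 of 8 (−0.02). Of all genes, 51.7% were lower, and these counts were not tested. JAK1, a kinase of the receptor, was at −0.57 ± 0.34 (edgeR adjusted p = 0.655). TYK2, another kinase of the receptor, went the other way, at 154 ± 19.4 CPM with high and 134 ± 26.8 CPM with low yield. Of 5 listed interferon ligands only IFNG passed the filter (log2 fold change 1.01 ± 1.43 in Shweta Kapila and −0.78 ± 1.63 in Gir).

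In Gir 35 of the 63 were on the higher and 28 on the lower side with high yield (median 0.02), where 52.6% of all genes were lower. At an unadjusted p under 0.05 stood 0 of the 63, where 1.89% of all genes did in either direction. IFNGR2, a chain of the interferon gamma receptor, and TYK2, a kinase of IFNAR1, had the lowest p on the higher side (0.44 ± 0.24 and 0.33 ± 0.22), and IRAK4 and ZBP1 on the lower (−0.42 ± 0.34 and −0.22 ± 0.21). Over both breeds IKBKE and TBKBP1 (0.53 ± 0.25 and 0.61 ± 0.31) stood opposite RIGI and CGAS (−0.50 ± 0.21 and −0.57 ± 0.26). For the difference between the breeds' yield differences TLR7 (1.28 ± 0.50) and CGAS (1.25 ± 0.51) were on the side higher in Gir, and SOCS1 (−1.88 ± 0.81) and NLRC5 (−0.62 ± 0.27) on the other. For breed IFNGR2 (0.47 ± 0.17) and ZNFX1 (0.68 ± 0.25) were higher in Gir, and RNF125 (−0.78 ± 0.31) and TLR3 (−0.72 ± 0.32) higher in Shweta Kapila.

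Most effector genes were on the lower side with high yield in both breeds. In Shweta Kapila 20 of 29 were on that side (median −0.43), beside 51.7% of all genes. Of the 29, 7 were on the lower side at an unadjusted p under 0.05, as were 2.93% of all genes tested. edgeR called 0 of the 29 there, DESeq2 1 (EIF2AK2; 0.396% of all genes) and weighted limma-voom 10 (25.3% of all genes). EIF2AK2 (−1.59 ± 0.37) and MX2 (−1.72 ± 0.53) had the lowest p there, with RTP4 (0.51 ± 0.27) and ISG20 (0.68 ± 0.49) on the higher side. In Gir 25 of 29 were on the lower side (median −0.16), beside 52.6% of all genes. IFI44 (−0.78 ± 0.31) and OAS2 (−1.21 ± 0.66) had the lowest p on that side, and MX2 (0.33 ± 0.52) and OASL (0.14 ± 0.61) on the higher side. For breed 21 of 29 were on the side higher in Gir (median 0.19), where 6961 of 15420 genes were. MX2 (1.37 ± 0.37) and OAS2 (1.22 ± 0.47) had the lowest p on that side, against EPSTI1 (−0.55 ± 0.16) and OASL (−1.38 ± 0.44). edgeR called 0 of the 29 for breed, DESeq2 1 (MX2; 1.27% of all genes) and weighted limma-voom 13 (16.6% of all genes). Over both breeds EIF2AK2 (−0.89 ± 0.26) and RSAD2 (−0.79 ± 0.26) were on the lower and UBA7 (0.32 ± 0.32) and LGALS3BP (0.27 ± 0.28) on the higher side. For the difference between the breeds the effector genes of lowest p were MX2 (2.04 ± 0.74) and EIF2AK2 (1.40 ± 0.52) on the side higher in Gir, and on the other side RTP4 (−0.87 ± 0.39) and IFI44 (−0.72 ± 0.44). The yield comparisons share cows with the breed comparison, so their values are not separate evidence. The counts of genes on each side were not tested.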

How the data were processed

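The deposited table holds the authors' expected counts per gene and library, of which 57.0% are not whole (tolerance 1e-06). Per the submitters' processing notes, FastQC and Trimmomatic were used. Libraries keep strand and had ribosomal RNA removed, per the labels' protocols. No source used here gives the aligner, counter, strand setting, build or annotation, so no coordinates and no sequences are printed. Names came by identifier from RefSeq (NIAB-ARS_B.indTharparkar_mat_pri_1.0), which matched 22754 of 26229 identifiers. All sample columns were used.

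Expected counts were rounded, filtered with filterByExpr (minimum count 10, minimum total 15), TMM-scaled and fitted with edgeR 4.0.16 in R 4.3.3 (robust quasi-likelihood, a mean per group, 12 libraries sharing an estimate of the spread; common biological coefficient of variation 0.381). Tests were 2-sided, with Benjamini-Hochberg adjustment over 15420 genes at 0.05, and intervals are 95%. The code was tested on simulated data. DESeq2 1.42.0, limma 3.58.1 (voom with sample weights), RLE scaling, no filter, a replicate block, a covariate, and libraries left out were the alternatives. Correlations used log2 CPM (prior count 2), with 100000 permutations over 12 cows and exact enumeration within breeds (Python 3.11.15, NumPy 2.4.6, SciPy 1.17.1). The permutations over 12 cows shuffled them without regard to breed or yield class, and those within breeds without regard to yield class. Plots used matplotlib 3.10.9.

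Each library is a separate cow, so p-values measure the spread between cows. Within a group no libraries were near-identical (chi-square over degrees of freedom between pairs 32.5 to 364). Members and lists were chosen with earlier results of these data known. All 7 measured members are named. Of the wider and of the effector list, the 2 genes of lowest p on each side per comparison are named, and for each member the 3 genes of highest Pearson r. JAK1, IFNG and the Shweta Kapila level of TYK2 were added after their values were seen.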

Additional observations from a re-analysis of the deposited data

How the results depend on the processing

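Each of the 7 genes had 442 or more counts per library, and each group had 3 cows. RLE scaling and no filter kept the direction of all 35 log2 differences of the 7 genes, as did DESeq2 and the replicate block. Replicate numbers share only a number (same-numbered cows' deviations correlated at −0.558 to 0.339, with 3 of 18 pairs over 0.1). With the replicate block 1 gene was called for breed and 0 in the other comparisons, and 0 of the 7.

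edgeR called 0 genes in each comparison, against 1, 61, 4, 9 and 195 with DESeq2 and 1, 3898, 1256, 1308 and 2558 with weighted voom (yield in Gir, in Shweta Kapila, over both breeds, their difference, breed). Weighted voom called 2 of the 7 for yield in Shweta Kapila, 1 (IFNAR2, 1.19, adjusted p = 0.0455) for the difference and 1 (STAT2) for breed. No filter gave 3 calls for breed, the share covariate 24, and leaving out libraries of over 22 M counts 31 for breed, 3 for Shweta Kapila and 1 over both breeds. With 1 cow left out, calls ran from 0 to 2 (yield in Shweta Kapila, 2 without low 3), 0 to 1 (difference, 1 without low 1) and 0 to 447 (breed, 447 without Shweta Kapila low 3, 4 or fewer without any other), and stayed at 0 for the other comparisons and for the 7 genes.

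With the share covariate these values turned sign: for yield in Shweta Kapila IFIH1 (0.086), MAVS (−0.15), STAT2 (0.075) and IRF9 (−0.37); over both breeds MAVS (−0.10), STAT2 (0.064) and IRF9 (−0.19); for the difference IFIH1 (−0.23), MAVS (0.11), STAT2 (−0.022) and IRF9 (0.36); for breed IFNAR1 (−0.0059) and IRF3 (−0.014). Without the libraries of over 22 M counts, MAVS and IRF9 turned for yield in Shweta Kapila (−0.21 and −0.22), over both breeds (−0.14 each) and for the difference (0.14 and 0.16), and IFNAR1, IRF3 and IRF9 turned for breed (−0.044, −0.19 and −0.27). Low-yielding Shweta Kapila is then a single cow, assumed to vary like the others, with levels of 41.4 (MAVS), 758 (IFNAR1), 133 (IFNAR2), 154 (IRF3) and 298 CPM (IRF9), and MAVS in low-yielding Gir was 30.3 CPM. The cause was not tested.

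With 1 cow left out, ranges that crossed 0 were, for yield in Gir, IFIH1 −0.30 to 0.084, IFNAR1 −0.36 to 0.061, IFNAR2 −0.24 to 0.28, STAT2 −0.19 to 0.30 and IRF9 −0.24 to 0.17; in Shweta Kapila, STAT2 −0.28 to 0.011 and IRF9 −0.24 to 0.73; over both breeds, MAVS −0.032 to 0.21, STAT2 −0.18 to 0.064 and IRF9 −0.15 to 0.34; for the difference, STAT2 −0.018 to 0.46 and IRF9 −0.79 to 0.18; for breed, IFIH1 −0.11 to 0.28, MAVS −0.17 to 0.059, IFNAR1 −0.12 to 0.10 and IRF3 −0.035 to 0.24.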
